A study of Homo sapiens with 6 samples.

Results

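To examine histone acetylation (Kac) and benzoylation (Kbz) at the genes that make and sense prostaglandins and leukotrienes, 10 genes were followed through the ChIP-seq peak lists of the series: PTGS1, PTGS2, PTGES, PTGES2, PTGES3, ALOX5, ALOX5AP, LTA4H, PTGER2 and PTGER4. They were listed by name from the pathway, in a series whose results were already known, and are 10 of 20033 protein-coding genes in GENCODE 44 on the chromosomes analysed. A peak counted for a gene when it overlapped the gene body or the 5 kb to either side of it. The cells are labelled HepG2, a line from a human liver tumour, and were cultured without (control) or with sodium benzoate (SB, 10 mM for 24 h). Chromatin cut with micrococcal nuclease was precipitated with pan antibodies against acetylated or benzoylated lysine, which do not tell which histone or residue carried the mark. Of the 6 libraries, input, Kac and Kbz of each condition, the peak lists of control Kac, SB Kac and SB Kbz were used, and for control Kbz the labels state that peak calling found nothing. Each group held 1 library, so no value has a replicate check or a test, read depth is unknown, and counts are read beside the same count over all protein-coding genes.

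Prostaglandins and leukotrienes are signalling lipids made from arachidonic acid, which phospholipases release from membranes. The cyclooxygenases PTGS1 and PTGS2 turn it into prostaglandin H2, the prostaglandin E synthases PTGES, PTGES2 and PTGES3 make prostaglandin E2 from that, and the receptors PTGER2 and PTGER4 sense it through cyclic AMP. In the other branch the 5-lipoxygenase ALOX5, helped by its membrane partner ALOX5AP, makes leukotriene A4, which LTA4H hydrolyses to leukotriene B4, an attractant of white blood cells. PTGS2 is known as an inducible gene, PTGS1 as a constant one, and ALOX5 and ALOX5AP as genes used mainly by white blood cells. Lysine acetylation of histones is typical of active promoters and enhancers.

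The libraries were set against marker genes of the labelled cell type. Of 18 genes of liver products, the promoters of 8 had Kac in control cells, those of 9 had Kac after SB and those of 3 had Kbz. A promoter is here the 3 kb around each annotated transcription start site (TSS) of a gene, on either side. ALB, APOB, FGA, FGB, FGG, SERPINA1, AMBP, HP and RBP4 had none in any list, and the main (canonical) TSS was under a peak in 2, 1 and 0 of the 18. Of 8 liver transcription factors, 6, 6 and 4 had a promoter peak. Kidney development factors had 9, 9 and 8 of 10, and blood lineage genes 6, 6 and 4 of 10, with none at PTPRC, CD3E, CD14 or ITGAM. Kac in both conditions was found at APOA1, APOA2, APOC3, APOH, TTR, TF, AHSG and F2. Over all protein-coding genes the promoter shares were 76.5% for Kac in control cells, 75.7% for Kac after SB and 64.6% for Kbz. Liver products, albumin among those without a peak, and blood lineage genes thus had promoter peaks less often than all protein-coding genes. Kidney development factors, at 9, 9 and 8 of 10, were above those shares by few genes. Liver transcription factors, at 6, 6 and 4 of 8, were near them for Kac and below for Kbz. The canonical TSS was under a peak in 6, 7 and 5 of the 10 kidney development factors. It was so in 3, 3 and 2 of the 8 liver transcription factors and 4, 4 and 2 of the 10 blood lineage genes. Over all protein-coding genes these shares were 59.1%, 60.4% and 45.8%. The cells are named here only as labelled.

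All 10 genes had Kac in both conditions, and 7 had Kbz. Where −log10 q had to reach 5, these counts were 8 (control Kac), 7 (SB Kac) and 5 (Kbz). The 7 genes with Kbz were PTGS2, the prostaglandin E synthases PTGES, PTGES2 and PTGES3, ALOX5, LTA4H and PTGER2. PTGS1, ALOX5AP and PTGER4 had no Kbz peak. Over all protein-coding genes the shares with a peak in the same window were 82.6% (control Kac), 81.4% (SB Kac) and 72.3% (Kbz), so the Kbz count was near the background. At promoters 9 members had control Kac, 10 SB Kac and 7 Kbz, against 76.5%, 75.7% and 64.6% of all protein-coding genes. The canonical TSS itself lay under control Kac in 6 members, under SB Kac in 7 and under Kbz in 4, against 59.1%, 60.4% and 45.8%. The members' windows had a median of 29890 bp, against 37471 bp for all protein-coding genes. Among the 10924 protein-coding genes with a window between those of the shortest and the longest member (17770 to 81944 bp), 75.5% had Kbz in the window and 68.4% at the promoter. Peak calls pool many cells, so that more cells with a mark and more of the mark per cell cannot be told apart.

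**Figure D1:**
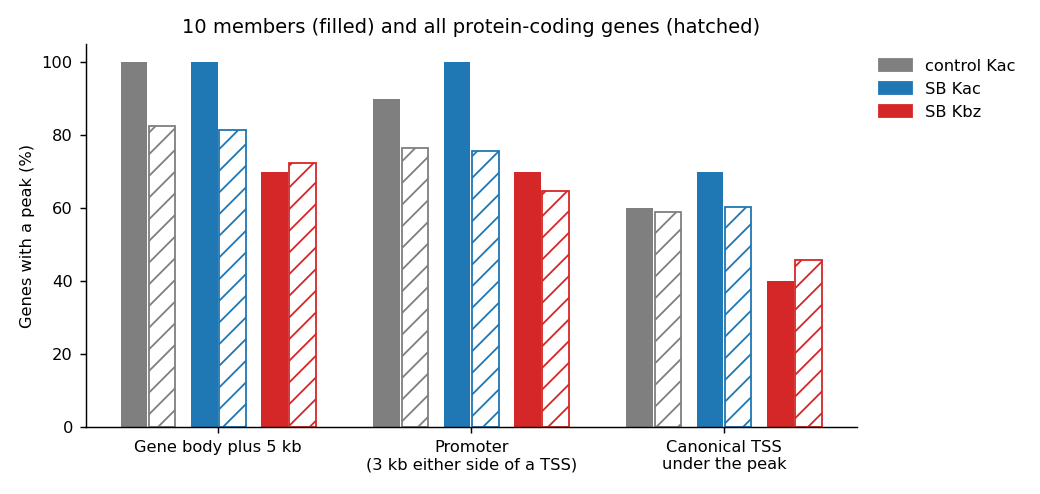
Share of genes with a peak, in percent, for the 10 members (filled bars) and all protein-coding genes (hatched bars), in the gene body plus 5 kb, at the promoter and over the canonical TSS; colours mark the 3 peak lists. For Kbz the filled and hatched bars stand close together, at 7 of 10 members and 72.3% of all genes in the widest window.

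The 10 genes held 28 control Kac peaks, 21 SB Kac peaks and 10 Kbz peaks. By position, 17, 15 and 8 of these were at a promoter of the gene itself. Of the 10 Kbz peaks, 9 overlapped SB Kac and 10 control Kac, against 93.7% and 93.3% of the whole Kbz list. In the other direction 9 of the 21 SB Kac peaks had Kbz, against 33.8% of the list. That list covers all the chromosomes analysed, whereas 15 of the 21 were at promoters, so these shares are not of like peaks. The strength of a peak is given below as the percentile of its fold inside its own list, where fold is the deposited ratio of read density over background. Percentiles order the peaks of 1 library and do not compare amounts of mark between libraries. Among SB Kac peaks at coding promoters, 1.32% had Kbz between percentiles 0 and 10, and 99.7% between 90 and 100. The strongest promoter peak of each member had a median percentile of 91.3 (control Kac), 81.9 (SB Kac) and 68.5 (Kbz), against 83.4, 86.1 and 69.2 over all protein-coding genes with such a peak.

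**Figure D2:**
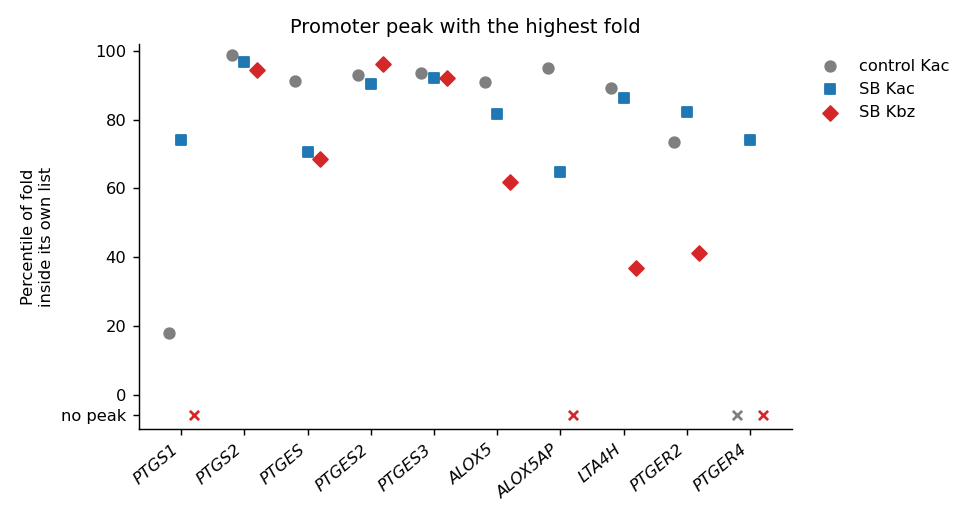
Percentile of fold inside its own list (vertical axis, 0 to 100) for the promoter peak with the highest fold of each member; a cross marks a promoter with no peak in that list. PTGS2, PTGES2 and PTGES3 stand above percentile 90 in all 3 lists, and LTA4H and PTGER2 have Kbz at 36.7 and 41.3 beside SB Kac at 86.4 and 82.1.

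Of the cyclooxygenase genes, PTGS2 had Kbz and PTGS1 did not. PTGS2 (chromosome 1, minus strand, 186671791 to 186680922, hg38) had 1 peak in each list, all at the promoter, at percentiles 98.9 (control Kac), 96.9 (SB Kac) and 94.4 (Kbz). The folds over background were 6.25, 6.30 and 6.82, and the −log10 q values 18.02, 21.62 and 20.02, so each list held PTGS2 among its strong peaks. Seen along the gene, the control Kac peak ran from 1042 bp upstream to 455 bp downstream of the canonical TSS, and the SB Kac peak from 777 bp upstream to 473 bp downstream. The Kbz peak was shorter, 660 bp, and lay wholly upstream of the canonical TSS, from 692 to 33 bp before it, over the outermost annotated start of PTGS2 at 186680922. It covered 52.8% of the SB Kac peak, close to the median of 53.5% over all SB Kac peaks with Kbz. It also held the start of PACERR, an antisense non-coding RNA, at 186680601, so PTGS2 and PACERR cannot be told apart as owners of this peak.

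PTGS1 (chromosome 9, plus strand, 122370530 to 122395703) had no peak within 3 kb of its canonical TSS at 122371024. Its only Kac peaks, at 122374746 to 122375389 in control and 122374897 to 122375566 after SB, lay over internal starts, 3722 and 3873 bp downstream of the canonical TSS. Their percentiles were 18.0 in control Kac (fold 2.65) and 74.2 in SB Kac (fold 3.78). Among SB Kac peaks at coding promoters between percentiles 70 and 80, 81.1% had Kbz, and PTGS1 was among those without.

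Both the edge of Kbz at PTGS2 and similar edges at other members can be placed on the promoter sequence. Shown next are the 250 bases before the start site of 4 genes, read 5′ to 3′ on the gene's strand from RefSeq (GRCh38.p14). They were picked because a peak edge falls inside them, and capitals mark the bases under the peak that ends there: Kbz for PTGS2 (chr1:186680424-186680673, minus strand) and PTGER2 (chr14:52314062-52314311, plus strand), control Kac for PTGES2 (chr9:128127730-128127979, minus strand) and for the outer start of ALOX5AP (chr13:30713235-30713484, plus strand), which RefSeq places at 30713485 and GENCODE at 30713478.
PTGS2: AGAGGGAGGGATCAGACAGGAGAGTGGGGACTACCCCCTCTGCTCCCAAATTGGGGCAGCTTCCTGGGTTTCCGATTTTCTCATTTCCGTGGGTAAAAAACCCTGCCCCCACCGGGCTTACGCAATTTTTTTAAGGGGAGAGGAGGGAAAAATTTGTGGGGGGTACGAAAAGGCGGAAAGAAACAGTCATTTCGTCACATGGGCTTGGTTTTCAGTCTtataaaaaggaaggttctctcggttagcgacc
PTGER2: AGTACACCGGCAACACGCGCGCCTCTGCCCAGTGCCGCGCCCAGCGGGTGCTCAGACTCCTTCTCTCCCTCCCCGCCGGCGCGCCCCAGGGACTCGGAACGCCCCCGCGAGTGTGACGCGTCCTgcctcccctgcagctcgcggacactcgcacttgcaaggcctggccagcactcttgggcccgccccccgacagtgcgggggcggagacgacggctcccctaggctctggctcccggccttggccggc
PTGES2: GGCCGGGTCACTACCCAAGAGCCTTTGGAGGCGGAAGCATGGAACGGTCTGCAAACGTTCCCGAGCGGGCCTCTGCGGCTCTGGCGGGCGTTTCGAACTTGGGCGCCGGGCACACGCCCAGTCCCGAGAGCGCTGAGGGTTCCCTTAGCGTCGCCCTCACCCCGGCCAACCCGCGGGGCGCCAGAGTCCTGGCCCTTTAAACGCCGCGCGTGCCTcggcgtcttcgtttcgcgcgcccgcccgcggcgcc
ALOX5AP: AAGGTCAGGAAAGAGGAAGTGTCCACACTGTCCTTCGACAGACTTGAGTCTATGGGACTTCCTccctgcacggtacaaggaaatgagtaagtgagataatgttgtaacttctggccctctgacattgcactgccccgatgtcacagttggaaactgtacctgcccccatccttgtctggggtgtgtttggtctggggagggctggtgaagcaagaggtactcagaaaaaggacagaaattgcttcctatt

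In PTGS2 218 of the 250 bases were under Kbz, and the 32 bases next to the TSS were not. The letters TATAAA, the TATA box, stood at positions -32 to -27 from the TSS, in the first of those uncovered bases; on the opposite strand they also occurred at PTGS1. Of all 35116 RefSeq promoter windows, 250 bases before to 50 after a start, 11.5% held TATAAA on either strand. In PTGER2 Kbz covered 124 of the 250 bases and stopped at position -127. In PTGES2 control Kac covered 215 and stopped at -36, while SB Kac and Kbz covered all of them, and in ALOX5AP 63 bases were under control Kac and none under a peak of the other lists. Peak edges come from read pile-ups over whole nucleosomes, so their place is known less finely than single bases.

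RefSeq windows were found for 9 of the 10 members, 12 windows in all, the exception being ALOX5. The GC box letters GGGCGG, on either strand, occurred at PTGS1, PTGES, PTGES2, PTGES3, PTGER2 and PTGER4, with 4 sites each in PTGES3, PTGER4 and the outermost window of PTGES2, against 45.0% of all windows with at least 1 site. Neither PTGS2, LTA4H nor the outer start of ALOX5AP held it. The letters CCAAT were found at PTGS2 and PTGER4 (34.6% of all windows), CACGTG at 1 PTGES2 window (7.26%) and TGACGTCA at none (1.85%). The windows of PTGES2, PTGES3, PTGER2 and PTGER4 had 25 to 43 CpG and those of PTGS1, PTGS2, PTGES, ALOX5AP and LTA4H 3 to 18, beside a median of 14 over all windows. Of the first group PTGES2, PTGES3 and PTGER2 had promoter Kbz, and PTGER4, with 30 CpG, did not. Of the second, PTGS2 (12 CpG), PTGES (10) and LTA4H (18) had it, and PTGS1 (4 and 10) and ALOX5AP (3) did not. A link between CpG count and Kbz was not tested. These letter matches describe the windows and are not binding sites.

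Turning to the prostaglandin E synthases, all of them had Kbz over the canonical TSS. At PTGES (chromosome 9, minus strand, 129738331 to 129753042), the inducible membrane enzyme, Kbz lay at 3 places. The promoter peak, 129752506 to 129753626, ran from 584 bp upstream to 536 bp downstream of the TSS and stood at percentile 68.5 (fold 4.64). A stronger Kbz peak, at percentile 96.0 (fold 7.23), lay at the 3′ end of the gene, from 129737372 to 129738612 over the last exon and the flank, at least 14430 bp from the TSS and 64572 bp from the nearest TSS of another coding gene. There Kac was strong as well, at percentile 94.6 in control and 92.6 after SB, but its peak was 6379 bp long in control cells and 1521 bp long after SB. The remaining Kbz peak of PTGES, 336 bp in an intron (129746357 to 129746692), was weak, at percentile 6.94 with a −log10 q of 1.59, past the FDR of 0.01 that the methods state, and it was the only Kbz peak of the 10 genes without SB Kac. A control Kac peak of 595 bp lay over it.

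Control Kac covered 50.5% of the PTGES window, the highest share among the members, SB Kac 33.0% and Kbz 10.9%, against medians over all protein-coding genes of 7.24%, 7.15% and 2.32%. Around the TSS of PTGES the control list had separate peaks at 129748537 to 129751031 and 129752247 to 129754104, where the SB list had a single peak from 129750074 to 129753878.

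PTGES2 (chromosome 9, minus strand, 128120693 to 128128462), a membrane-bound synthase of the Golgi, had the highest ranked Kbz peak of the 10 genes, at percentile 96.3 (fold 7.30). It ran from 861 bp upstream to 345 bp downstream of the canonical TSS and held the start of the antisense gene PTGES2-AS1 as well. SB Kac stood at percentile 90.3 and reached from 964 bp upstream to 2570 bp downstream, whereas the strongest control Kac peak, at percentile 92.9, ended 36 bp before the TSS and a weaker one, at 34.2, began 1447 bp after it. The canonical TSS of PTGES2 was the only one of the 10 that was under SB Kac and not under control Kac. The start site at 128128462, the outermost of 16 annotated, was covered in both.

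PTGES3 (chromosome 12, minus strand, 56663341 to 56688408), known also as the HSP90 co-chaperone p23, carried the longest peaks. Its single control Kac peak was 9602 bp, its SB Kac peak 14234 bp and its Kbz peak 4717 bp long. Control and SB Kac began at the same base, 2247 bp upstream of the TSS, and ended 7354 and 11986 bp downstream, while Kbz reached from 1223 bp upstream to 3493 bp downstream. The percentiles lay close together, at 93.7, 92.2 and 92.0. No annotated start of another gene lay inside these peaks.

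**Figure D3:**
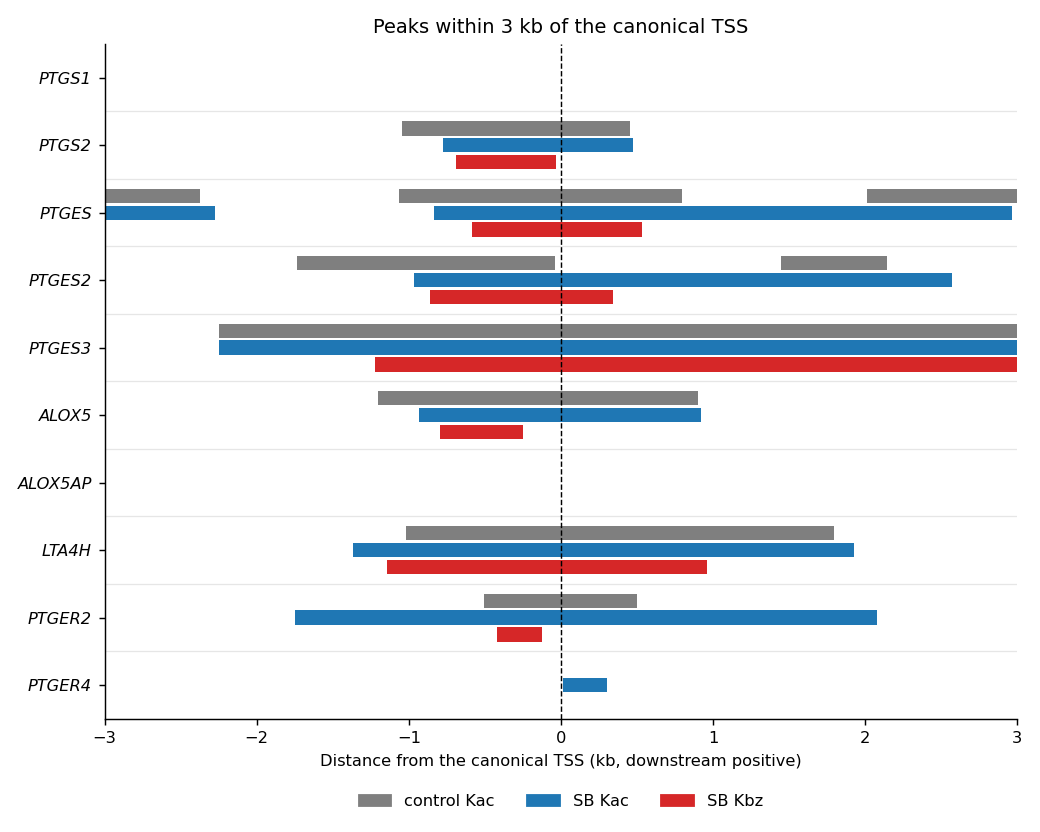
Peaks within 3 kb of the canonical TSS of each member (horizontal axis: distance from the TSS in kb along the direction of transcription; bars: peaks of the 3 lists, cut at the edge of the plot). Kbz lies upstream of the dashed TSS line at PTGS2, ALOX5 and PTGER2 and across it at PTGES, PTGES2, PTGES3 and LTA4H.

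In the leukotriene branch, ALOX5 (chromosome 10, plus strand, 45374176 to 45446119) had Kac over its TSS in both conditions, at 45373016 to 45375117 in control and 45373283 to 45375134 after SB, at percentiles 90.9 and 81.7. Its Kbz peak, 45373423 to 45373968, was 546 bp long, at percentile 61.8, and lay from 793 to 248 bp upstream of the canonical TSS. It covered 29.5% of the SB Kac peak. The other Kac peaks of ALOX5, 2 in each condition, lay 47119 bp or more downstream, within 3 kb of internal starts, and all of them were below percentile 23. A pair of them overlapped between the conditions, 65279 bp (control) and 65240 bp (SB) downstream of the TSS, and the others were found in 1 condition each. Both control peaks (−log10 q 1.70 and 1.78) and the SB peak of the overlapping pair (1.78) were past the stated FDR.

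ALOX5AP (chromosome 13, plus strand, 30713478 to 30764426) had fewer Kac peaks, over less of its length, after SB, in 1 library per condition at unknown depth. It had 8 control Kac peaks covering 14445 bp and 5 SB Kac peaks covering 5810 bp, or 23.7% and 9.53% of its window, and no Kbz. The control peaks at 30750144 to 30750783 and 30755235 to 30756038 had −log10 q values of 1.82 and 1.77, past the stated FDR. ALOX5AP had no SB Kac peak past it. Its canonical TSS, at 30735543, was under no peak, and the outer start, at 30713478, had a control Kac peak (30711402 to 30713297, percentile 76.6) which ended 181 bp upstream and had no counterpart after SB. The strongest control peak, 30742534 to 30746669 near an internal start, stood at percentile 94.9. After SB its place was taken by peaks at 30742420 to 30744728 and 30746231 to 30746541, at percentiles 57.7 and 48.5. The highest SB Kac percentile at ALOX5AP was 64.6, in a range (60 to 70) where 49.8% of coding-promoter SB Kac peaks had Kbz.

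LTA4H (chromosome 12, minus strand, 96000753 to 96043520) had peaks of all 3 lists at 2 places: over its canonical TSS at 96035587 and over an outer start at 96043520. At the canonical TSS, Kbz reached from 1145 bp upstream to 963 bp downstream, inside an SB Kac peak from 1366 bp upstream to 1929 bp downstream. Kbz was weak here, at percentile 36.7, beside 86.4 for SB Kac and 77.8 for control Kac. At the outer start Kbz stood at percentile 13.6 with a −log10 q of 1.82, also past the stated FDR, SB Kac at 71.6 and control Kac at 89.2. The Kac lists thus ranked the pair of starts in opposite orders, with the canonical TSS above the outer start after SB and below it in control cells. Both Kbz peaks of LTA4H were lost where −log10 q had to reach 5.

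Of the receptor genes, too, Kbz was called at one, PTGER2, and not at the other. PTGER2 (chromosome 14, plus strand, 52314305 to 52328598) had a promoter peak in all 3 lists, at percentiles 73.4 (control Kac), 82.1 (SB Kac) and 41.3 (Kbz). The control Kac peak was 1006 bp long and the SB Kac peak 3825 bp, from 1748 bp upstream to 2076 bp downstream of the TSS. The Kbz peak, 295 bp, was the shortest of the 10, lay from 421 to 127 bp upstream and covered 7.71% of the SB Kac peak. It held the start of an unnamed non-coding gene of the opposite strand at 52314099. With a −log10 q of 3.65, this Kbz call was lost where −log10 q had to reach 5, among the 15000 peaks of highest −log10 p and with no flank around the gene body, and without it neither receptor gene had Kbz.

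PTGER4 (chromosome 5, plus strand, 40679915 to 40693735) was the only member whose promoter had Kac in 1 condition alone. An SB Kac peak of 288 bp, 40679928 to 40680215, began 13 bp downstream of the canonical TSS and stood at percentile 74.2 (fold 3.78), with no control Kac peak at the promoter and no Kbz. Over all protein-coding genes 2.13% had promoter Kac after SB only and 3.01% in control only, which no member showed. The 1 control Kac peak of PTGER4, 40688476 to 40689416 in the gene body, was weak, at percentile 21.8, and was not found after SB. SB Kac covered 1.21% of the PTGER4 window, the lowest share of the 10, and control Kac 3.95%. The −log10 q of the promoter peak was 4.61, and the call was lost where −log10 q had to reach 5 and among the 15000 peaks of highest −log10 p. Of the genes with promoter SB Kac, PTGS1, ALOX5AP and PTGER4 had no promoter Kbz, against 14.9% of all such protein-coding genes. The promoter SB Kac of all 3 was lost under the same thresholds, and so was that of PTGES, which had promoter Kbz.

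**Figure D4:**
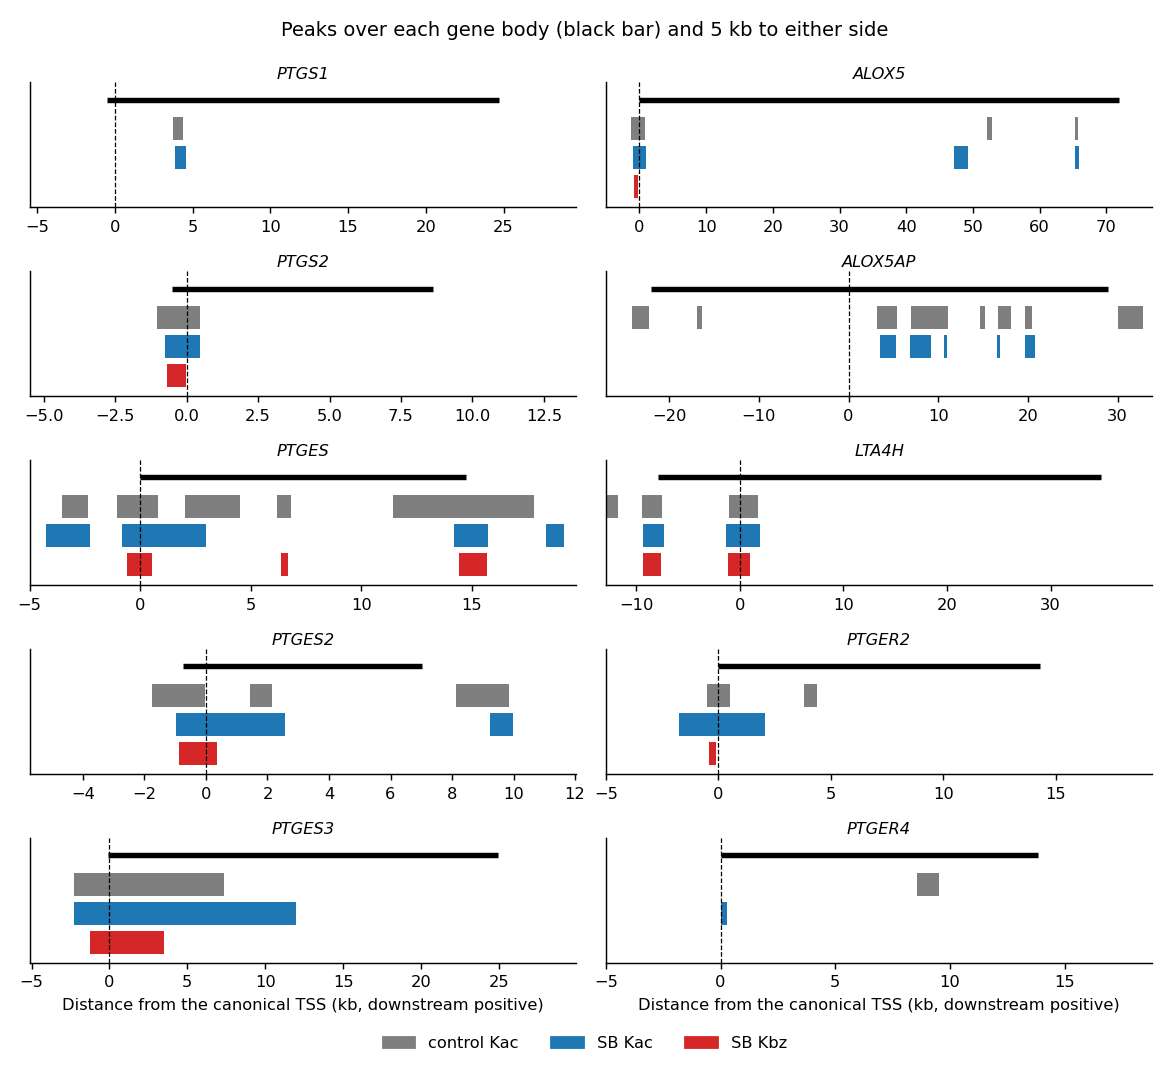
Peaks over the whole window of each member (horizontal axes: distance from the canonical TSS in kb along the direction of transcription, scaled to each gene; black bar: gene body; coloured bars: peaks of the 3 lists). ALOX5AP shows 8 control Kac and 5 SB Kac peaks with no Kbz, PTGES a strong Kbz peak at its 3′ end, and LTA4H peaks of all 3 lists at 2 starts.

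The 7 genes with promoter Kbz fell into those with the canonical TSS under Kbz (PTGES, PTGES2, PTGES3 and LTA4H) and those without (PTGS2, ALOX5 and PTGER2). Of all protein-coding genes with promoter Kbz, 29.2% had none over the canonical TSS. At PTGS2, ALOX5 and PTGER2, Kbz lay upstream of the canonical TSS only, at PTGS2 over another start of the gene. Of protein-coding genes with Kbz within 3 kb of the canonical TSS, 11.5% had it upstream only. The Kbz peaks ended 33 bp (PTGS2), 248 bp (ALOX5) and 127 bp (PTGER2) before that TSS. Peak edges are not known to single bases, so this split is uncertain, most of all at PTGS2. The Kbz call of PTGER2 was also lost where −log10 q had to reach 5. In each of these 3 genes SB Kac and control Kac covered the canonical TSS. At PTGS2 and PTGER2 the Kbz peak held the start of an antisense transcript, but at ALOX5 no other annotated start lay under it.

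Kac peaks found in 1 condition only were spread over the genes. Of the 28 control Kac peaks 9 had no SB Kac peak, or 32.1%, against 35.3% of the whole list, and 4 of them were at ALOX5AP. The other 5 were single peaks of PTGES, ALOX5, LTA4H, PTGER2 and PTGER4. Where −log10 q had to reach 2, 7 of 24 control Kac peaks had no SB Kac peak. Of the 21 SB Kac peaks 3 had no control Kac peak, or 14.3%, against 27.5%, and they were at PTGES, ALOX5 and PTGER4. The PTGES peak, with a −log10 q of 1.95, was past the stated FDR. Where −log10 q had to reach 2, 3 of 19 SB Kac peaks had no control Kac peak. The PTGES peak was then lost, and an ALOX5AP peak lost its control counterpart. The whole lists also hold peaks outside gene windows. The control-only peaks had a median percentile of 33.4 and a median length of 716 bp, against 77.8 and 1712 bp for those found in both conditions. PTGS1, PTGS2, PTGES2 and PTGES3 had no Kac peak of either condition without a counterpart.

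The rest of the arachidonate pathway was described with 58 further genes. Of these 41 had control Kac at a promoter, 39 SB Kac and 29 Kbz, which is 70.7%, 67.2% and 50% and below the 76.5%, 75.7% and 64.6% of all protein-coding genes. All 7 enzymes of cysteinyl leukotriene synthesis and breakdown had a promoter peak in all 3 lists, a group singled out after its values were seen. Of these, 2, MGST2 and MGST3, had Kbz over the canonical TSS. Their Kbz percentiles ran from 29.7 at GGT5, 37.7 at LTC4S and 41.8 at GGT1 to 95.2 at MGST2 and 98.0 at DPEP2. The canonical TSS of DPEP2 lay under no peak of any list. PTGR2, which reduces prostaglandin metabolites, stood at 96.7, the phospholipase PLA2G6 at 90.1 and PLA2G12A at 88.2, and these with DPEP2 and MGST2 were the 5 highest ranked of the list. The cytosolic phospholipase PLA2G4C and the lysosomal PLA2G15 stood at 78.2 and 46.9 for Kbz. Both were followed up by the study, as was the member PTGS2.

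Among 7 other prostanoid receptors, PTGER1 and TBXA2R had promoter Kbz, whereas PTGER3, PTGIR and PTGFR had SB Kac without it. None of the 5 leukotriene and oxoeicosanoid receptors had promoter SB Kac or Kbz, though LTB4R and LTB4R2 had control Kac at percentiles 13.5 and 11.9. Of 16 phospholipases 11 had control Kac, 11 had SB Kac (68.8% each) and 8 had Kbz (50%), also below the shares of all protein-coding genes. In a group of 16 these differences amount to few genes, and none was tested. PLA2G4B had Kac in control only and PLA2G2E after SB only.

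**Figure D5:**
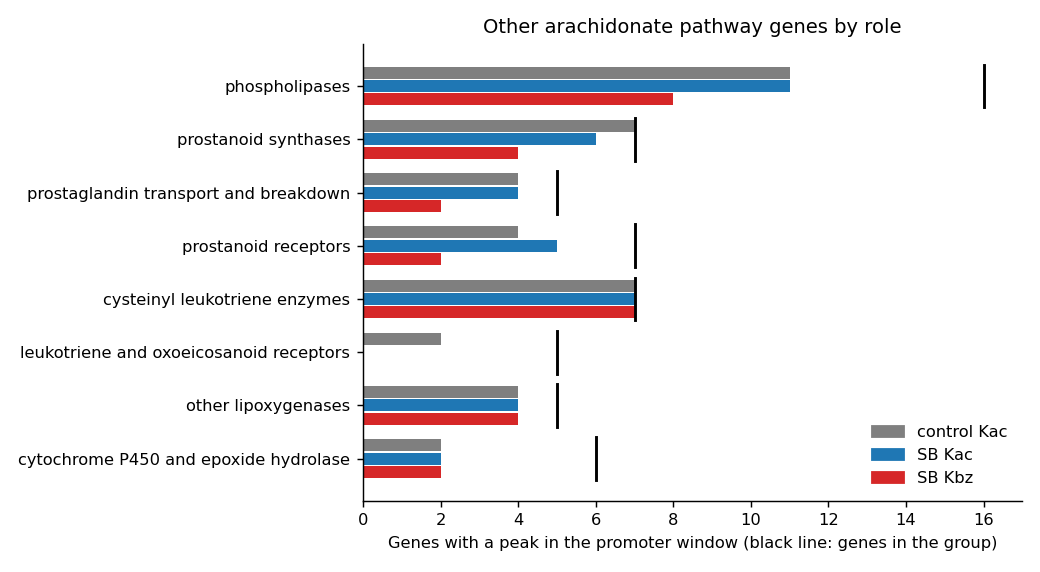
Number of genes with a promoter peak in each of the 3 lists (horizontal bars), by role in the arachidonate pathway; the black line gives the number of genes in the group. All 7 cysteinyl leukotriene enzymes reach the line in all 3 lists, and the leukotriene receptors have control Kac at 2 of 5 genes only.

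When the 9 calls of PTGS2 (window, promoter and canonical TSS in 3 lists) were compared with those of the 58 further pathway genes, PLA2G12A alone had the same calls. Among the members ALOX5 and PTGER2 had them, and among all protein-coding genes 1626 of 20033. PLA2G12A stood at percentiles 63.3, 81.1 and 88.2 in control Kac, SB Kac and Kbz, where PTGS2 stood at 98.9, 96.9 and 94.4.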

How the data were processed

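Libraries of chromatin labelled HepG2 were prepared and processed by the authors: 50 bp single reads were aligned to hg38 with Bowtie2 2.2.6, unique reads were kept, duplicates removed with SAMtools 0.1.19 and peaks called per library with MACS2 2.1.1 at a stated FDR of 0.01 (versions from the processing notes of the submitters). The deposited broad peaks carry a fold (a ratio of read density to background), −log10 p, −log10 q and a display score, which was not used. These are averages over each peak. The highest q was 0.0494, so the deposited lists reach past the stated FDR. The setting for broad calls and the background track are not given in the sources used here. Depth is unknown.

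Peaks on 24 chromosomes were kept (70326 control Kac, 63282 SB Kac, 24308 Kbz), while 3 peaks of control Kac on unplaced or other sequences were dropped. Genes came from GENCODE 44 and promoter sequences from RefSeq. A peak counted with at least 1 bp of overlap. Members and lists were chosen with earlier results of these data known. All 10 members are described, with every Kbz peak and the strongest Kac peak of each promoter. Of the pathway list, the genes followed up by the study, the 5 highest ranked for promoter Kbz and those with the calls of PTGS2 are named; other peaks and genes named beside these were chosen after their values were seen. Alternatives were another threshold, window, start or overlap rule. Python 3.11.15, numpy and pandas were used, and the code for overlaps was checked with simulated peaks.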

Additional observations from a re-analysis of the deposited data

How the results depend on the processing

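Each of 15 counts was recomputed with 1 choice changed at a time, 73 values in all, of which 62 were within 1.5 times of the original and 11 were not. All 11 came from the thresholds, which by construction leave fewer peaks. Where −log10 q had to reach 5, the windows kept 13 (control Kac), 7 (SB Kac) and 6 (Kbz) peaks. Control Kac was then left in the windows of 8 members, without PTGS1 and PTGER4. SB Kac was left in those of 7, without PTGS1, ALOX5AP and PTGER4. Promoter SB Kac was then left at 6 members, without PTGS1, PTGES, ALOX5AP and PTGER4, so the SB-only Kac peak of PTGER4 was lost, and Kbz was lost at LTA4H and PTGER2. Kbz peaks with SB Kac numbered 5 of 6, and SB Kac peaks with no control Kac 0 of 7. With the 15000 peaks of highest −log10 p in each list, the windows kept 9, 7 and 6 peaks, promoter SB Kac was at 6 members, and the canonical TSS was under control Kac in 3. With no flank, the Kbz peaks of ALOX5 and PTGER2 fell outside the gene body. Around the canonical TSS alone, PTGS1 and ALOX5AP had no promoter Kac in either condition. With any annotated TSS in place of the canonical one, Kbz covered a start of PTGS2 too. No paired analysis was possible because a group is a single library here, and no replicate could be left out.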
